A study of Mus musculus with 6 samples.

Results

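The genes that write, remove and read DNA methylation, together with the core of Polycomb repressive complex 2 (PRC2), were followed in colonic intestinal epithelial cells (IECs) of colitic mice with or without epithelial Nsd2. The 10 genes were listed by symbol, by a rule that reads no measured value but with earlier results of these data known: Dnmt1, Uhrf1, Dnmt3a and Dnmt3b of DNA methylation, Tet1, Tet2 and Tet3 of its removal, and Ezh2, Eed and Suz12 of PRC2. Each matched 1 of the 55487 genes in the table, and 9 of the 10 had enough reads for a test, the exception being Tet1. No difference between genotypes was established for any of the 9. The larger differences in Dnmt1, Uhrf1 and Ezh2 were between libraries of one genotype. Dnmt3a had little spread and was higher in each knockout library than in any control library. The genotypes did not overlap in 1 of the 9 genes, against 9.90% of all tested genes.

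DNMT1 copies methylation onto the new strand after DNA replication, and UHRF1 brings it there by binding hemimethylated CpG. DNMT3A and DNMT3B set methylation on unmethylated DNA, and the PWWP domain of DNMT3A binds methylated histone H3 lysine 36 (H3K36), the residue that NSD2 dimethylates. TET enzymes oxidise 5-methylcytosine, which opens the way to its removal. PRC2 methylates H3 lysine 27 (H3K27) through EZH2, with EED and SUZ12 as partners needed for its activity, and methylation of H3K36 on the same histone tail hinders it. In the colon, proliferating cells sit in the lower crypt, and Dnmt1, Uhrf1 and Ezh2 are known as genes of cycling cells.

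The controls were 3 libraries of Nsd2 f/f mice, with loxP sites around Nsd2 and no Cre, and the knockouts were 3 libraries of Nsd2 Vil-KO mice, with the same floxed alleles and Cre under the Villin promoter, active in intestinal epithelium and not in the immune, stromal or endothelial cells beside it. All 6 came from mice of 2 months given 2% dextran sodium sulphate (DSS), an agent that injures the colonic epithelium, so untreated mice were not compared. IECs were released from the colon with EDTA and not sorted. The day of sampling for RNA-seq and the number of mice behind a library are not given in the sources used here, so p-values measure the spread between these libraries.

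The libraries held 15439123 to 20350539 counted reads. Values are CPM, reads scaled to a common library size with TMM factors, and 3 counts corresponded to 0.146 to 0.242 CPM. The libraries here called Nsd2 f/f replicate 3 and Nsd2 Vil-KO replicate 2 stood apart: their Spearman correlation to the remaining 4 averaged 0.933 over tested genes, and the remaining 4 averaged 0.981 among themselves. These 2 had 347 and 204 CPM of Xist, the RNA of the inactive X chromosome, against at most 0.255 CPM elsewhere. Mitochondrial genes took 19.6% of counts in Nsd2 f/f replicate 3 and 5.51% to 9.13% in the others. Since each genotype holds 1 of them, values without both are given beside those with all 6. Epithelial markers were abundant in every library, with Epcam at 2023 to 2786 CPM and Vil1 at 549 to 988 CPM.

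The targeted gene was examined first. Nsd2 (ENSMUSG00000057406, chromosome 5, 33820725 to 33897975) gave 47.9, 51.2 and 24.6 CPM for controls 1 to 3 and 24.2, 10.4 and 20.8 CPM for knockouts 1 to 3. Each knockout library was below each control library, but the lowest control, Nsd2 f/f replicate 3, was close to the highest knockout. The log2 difference, Nsd2 Vil-KO minus Nsd2 f/f, was -1.16 with a standard error (SE) of 0.39 (edgeR, unadjusted p = 0.0217, adjusted p = 0.992), and -1.13 without both libraries that stood apart.

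The genotypes were compared by edgeR's quasi-likelihood test over all 14650 genes with enough reads, and 2 criteria were read: an adjusted p below 0.05, which the study's methods name, and the screening criterion of its results, a fold change above 1.2 with a p below 0.05, taken here as the unadjusted p because the results text does not call it adjusted. No gene of the table passed the first (0%; smallest adjusted p = 0.992), 482 genes had an unadjusted p below 0.05, and DESeq2 called 4 genes at an adjusted p below 0.05. Of the 9 tested genes of methylation and PRC2, 0 passed the adjusted criterion in edgeR or DESeq2, 0 had an unadjusted p below 0.05 in edgeR, and 0 passed the screening criterion in edgeR, which 3.29% of all genes passed. With DESeq2 1 of the 9, Dnmt3a, passed the screening criterion, as did 4.32% of all genes. Of the 9, 6 were on the higher side in Nsd2 Vil-KO and 3 on the lower side, with a median log2 difference of 0.17, against 0.00 over all tested genes; without Nsd2 f/f replicate 3 that median was -0.11, with 4 on the higher side, and without Nsd2 Vil-KO replicate 3 it was -0.04. In 1 of the 9, Dnmt3a, the genotypes did not overlap, and 9.90% of all tested genes had no overlap. Unsorted tissue does not separate fewer cells of a type from less RNA per cell, and this holds for every value given here.

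**Figure D1:**
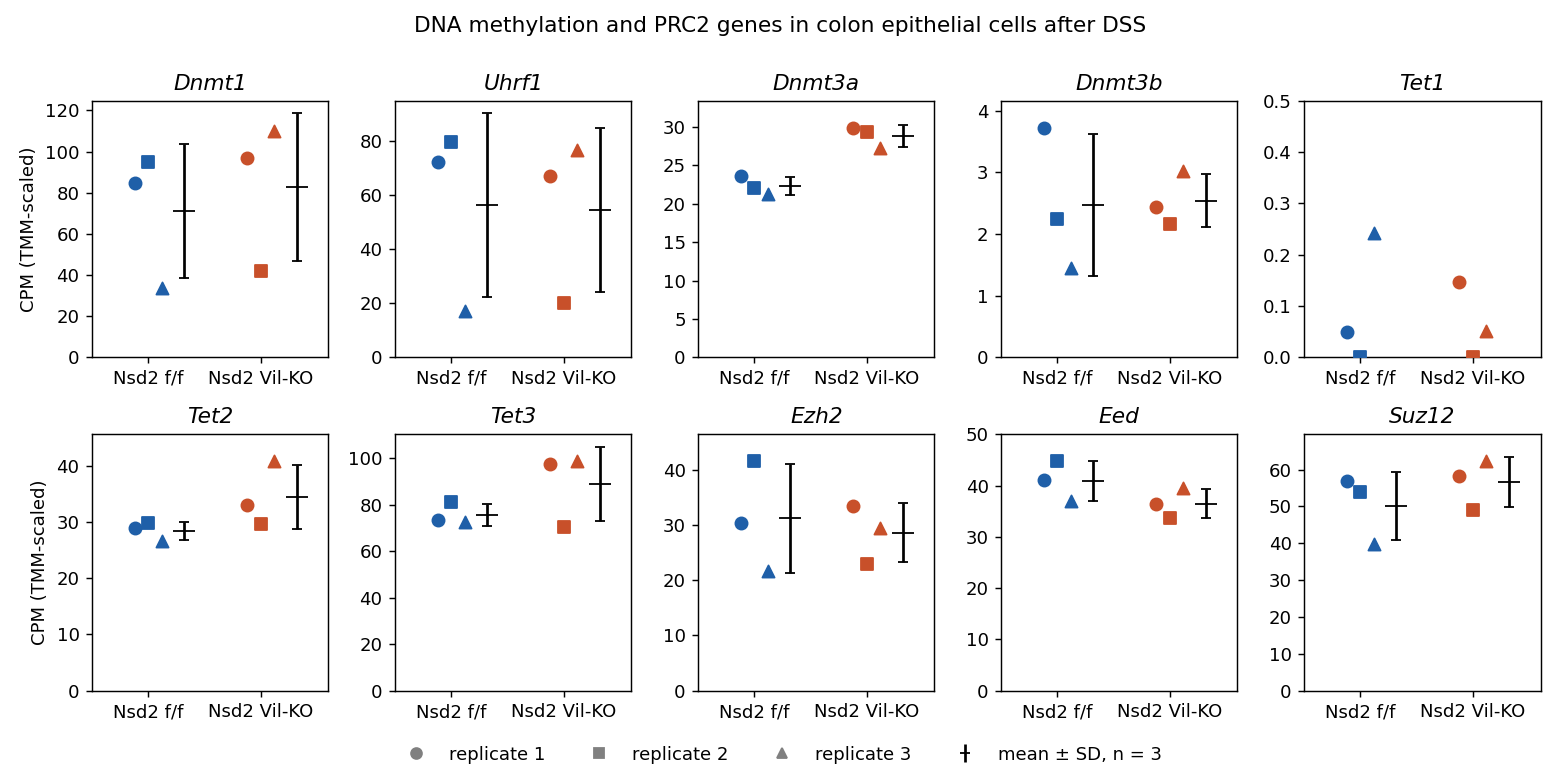
CPM of each of the 10 genes in each library, with 1 point per library and the mean and SD of 3 libraries per genotype (no mean is drawn for Tet1, with at most 3 counts in a library); each panel has its own linear axis from 0. Dnmt3a has Nsd2 Vil-KO at 27.2 to 29.9 CPM and Nsd2 f/f at 21.3 to 23.6 CPM, while Dnmt1 and Uhrf1 each have 1 low library in either genotype.

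**Figure D2:**
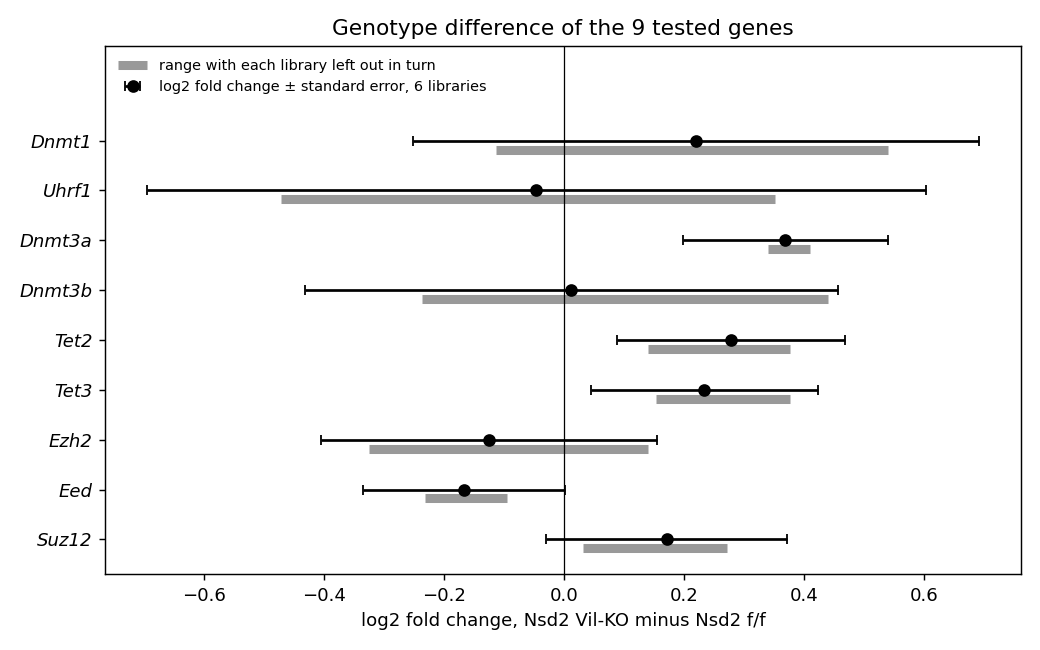
Log2 difference between genotypes (Nsd2 Vil-KO minus Nsd2 f/f) of the 9 tested genes, with error bars of the SE from the edgeR fit. Grey bars span the differences obtained after dropping single libraries. The SE differs between genes, from 0.17 for Dnmt3a and Eed to 0.65 for Uhrf1. The 95% intervals are not drawn, and those of the 9 include 0. Nsd2 is not drawn either, and its 95% interval runs from -2.09 to -0.23.

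Promoter sequences show a feature that the choice of the genes did not use. The RefSeq windows on GRCm38.p6, from 250 bases before to 50 after a transcription start, were available for all 10 genes (15 windows). They were searched on both strands for the letters TTCCCGC, the variant TTCGCGC, the variant TTGCCGC and the variant TTGGCGC, all of the kind bound by E2F factors, which control genes of DNA replication. At least 1 match was found for 4 of the 10 genes, Dnmt1, Uhrf1, Ezh2 and Suz12, and for 10.9% of all genes with a window. A window with a match is shown for each, 5′ to 3′ along the gene, with the matched letters in capitals, because these 4 were also among the 6 genes with lower values in both libraries that stood apart; the other 2 of those 6, Dnmt3b and Tet3, held no match.
Dnmt1, chr9:20952574-20952873, minus strand: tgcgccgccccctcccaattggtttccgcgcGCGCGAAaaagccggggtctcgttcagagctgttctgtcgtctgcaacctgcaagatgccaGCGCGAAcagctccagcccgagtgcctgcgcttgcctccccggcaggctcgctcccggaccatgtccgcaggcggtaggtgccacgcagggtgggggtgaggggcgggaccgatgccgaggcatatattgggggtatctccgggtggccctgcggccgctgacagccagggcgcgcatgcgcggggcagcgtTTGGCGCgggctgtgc
Uhrf1, chr17:56304063-56304362, plus strand: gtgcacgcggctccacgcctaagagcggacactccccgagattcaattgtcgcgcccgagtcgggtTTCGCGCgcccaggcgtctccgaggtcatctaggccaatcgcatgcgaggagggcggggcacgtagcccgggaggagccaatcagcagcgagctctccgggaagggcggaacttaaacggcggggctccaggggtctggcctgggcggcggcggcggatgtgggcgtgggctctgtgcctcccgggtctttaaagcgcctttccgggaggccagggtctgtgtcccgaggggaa
Ezh2, chr6:47594981-47595280, minus strand: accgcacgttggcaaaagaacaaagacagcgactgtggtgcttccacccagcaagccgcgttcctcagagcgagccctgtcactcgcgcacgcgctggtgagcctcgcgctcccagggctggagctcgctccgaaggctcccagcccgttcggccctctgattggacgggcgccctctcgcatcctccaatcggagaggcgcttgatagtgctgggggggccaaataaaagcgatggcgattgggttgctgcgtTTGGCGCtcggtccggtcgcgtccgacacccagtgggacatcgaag
Suz12, chr11:79992856-79993155, plus strand: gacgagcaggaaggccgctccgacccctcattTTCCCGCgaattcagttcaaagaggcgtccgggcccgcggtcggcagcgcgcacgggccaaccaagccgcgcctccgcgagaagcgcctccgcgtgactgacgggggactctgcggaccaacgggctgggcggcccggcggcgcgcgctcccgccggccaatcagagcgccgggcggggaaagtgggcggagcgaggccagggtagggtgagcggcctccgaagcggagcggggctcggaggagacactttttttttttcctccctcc

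The Dnmt1 window held 3 matches, with their first base at -219, -158 and 34 from the start, of which the first and second read on the opposite strand of the gene. The other genes had 1 match per window, at -184 in Uhrf1, 4 in Ezh2 and -218 in Suz12, and none of the matches overlapped another. A further Uhrf1 window (chr17:56303087-56303386) held TTCCCGC at -48, whereas the other Dnmt1 windows held no match. Of the 24 replication genes used below (the S phase list), 21 had a window and 14 of these held a match, or 66.7%. Other lists used below ranged widely: 3 of 3 readers of methylated CpG, 50% of germline genes and 50% of partners of DNA methylation. The share was 30% for PRC2 partners, 23.1% for mitosis, 22.2% for demethylation and base excision, and 20% for developmental regulators. It was 14.3% for PRC1 and 0% for H3K27 demethylases and other H3K36 methyltransferases, each of which had only 1 gene with a window. The median window held 30 CpG for the 10 genes and 7 over all windows, and the 10.9% was not matched for CpG. A match describes the letters and is not a measured site, and a link between the matches and the levels in the libraries was not tested.

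CpG density at the starts varied as well. The CpG-richest window per gene held 57 CpG in Tet2, 47 in Dnmt3a and 41 in Suz12, and the median of all RefSeq windows was 7. Windows with at least as many CpG as Tet2 made up 0.152% of all windows, and the figure was 1.44% for Dnmt3a. Dnmt1 and Uhrf1 (33 each), Ezh2 (31), Dnmt3b (30) and Tet3 (22) followed, and Tet1 and Eed had 17. Eed, with fewer CpG than most of the 10 but more than the median window, was at 33.7 to 44.7 CPM and Tet1 was at the limit of detection, so windows of like CpG number stood at genes of very different level.

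**Figure D3:**
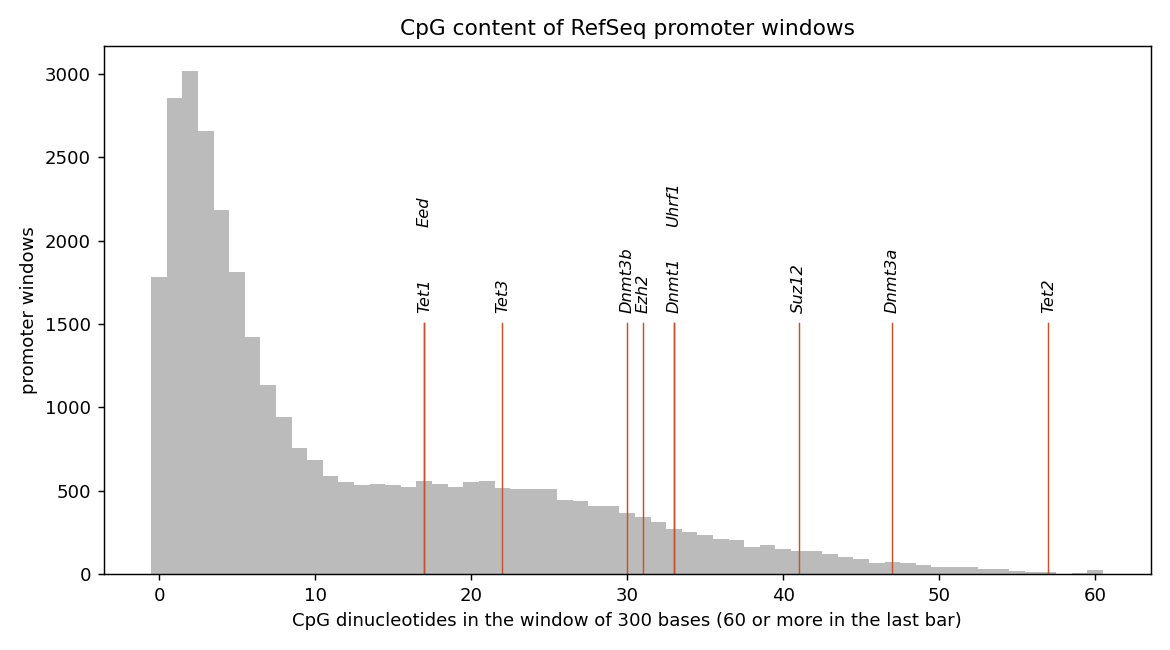
CpG number per 300-base promoter window for all RefSeq windows (histogram) and for the richest window of each of the 10 genes (marks). The median of all windows is 7, and the 10 genes lie between 17 and 57.

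The maintenance pair had the largest spread of the 9 genes between libraries. Dnmt1 (ENSMUSG00000004099, chromosome 9, 20907209 to 20959888) was at 84.5, 94.96 and 33.7 CPM in Nsd2 f/f and 96.8, 41.9 and 109.8 CPM in Nsd2 Vil-KO. Uhrf1 (ENSMUSG00000001228, chromosome 17, 56303321 to 56323486) was at 72.1, 79.6 and 17.1 CPM in Nsd2 f/f and 67.0, 20.03 and 76.7 CPM in Nsd2 Vil-KO. In both genes the genotypes overlapped, and the low values were Nsd2 f/f replicate 3 and Nsd2 Vil-KO replicate 2. The highest library exceeded the lowest 3.26 times for Dnmt1 and 4.65 times for Uhrf1, against a median of 2.17 times over all tested genes, and 20.9% of tested genes had a ratio at least as large as that of Uhrf1. The log2 difference between genotypes was 0.22 for Dnmt1 (SE 0.47, 95% interval -0.89 to 1.33; edgeR, adjusted p = 0.996). It was -0.05 for Uhrf1 (SE 0.65, interval -1.58 to 1.48; edgeR, adjusted p = 0.999). With both libraries that stood apart left out, the differences were 0.21 (SE 0.12) and -0.07 (SE 0.12), so the SE was smaller while the values hardly moved. The 6-library intervals leave room for more than a doubling in either direction for Uhrf1, so equality of the genotypes was not shown.

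Of the de novo enzymes, Dnmt3a had narrow replicates. Dnmt3a (ENSMUSG00000020661, chromosome 12, 3806007 to 3914443) was at 23.6, 22.0 and 21.3 CPM in Nsd2 f/f, a mean of 22.3 ± 1.15 (SD, n = 3), and 29.9, 29.3 and 27.2 CPM in Nsd2 Vil-KO, a mean of 28.8 ± 1.40 (SD, n = 3). Every knockout library was above every control library, as in 5.21% of all tested genes. The log2 difference was 0.37 (SE 0.17, 95% interval -0.03 to 0.77), with an unadjusted p of 0.067 and an adjusted p of 0.992 (edgeR), and the exact two-sided permutation test gave p = 0.1, the smallest that 3 against 3 libraries allow. Dnmt3a thus missed both criteria in edgeR. It passed the screening criterion, but not the adjusted one, on the same 6 libraries with DESeq2 (unadjusted p = 0.0481, DESeq2 adjusted p = 0.999) and with limma-voom with quality weights (unadjusted p = 0.0224, limma adjusted p = 0.469). Without the 2 libraries that stood apart the difference was 0.33 (unadjusted p = 0.0459, edgeR adjusted p = 0.444), past the screening criterion. An annotated antisense transcript, Dnmt3aos, shares 133 exon bases with Dnmt3a on the other strand, and its reads cannot be told apart from those of Dnmt3a if strand was not used in counting.

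Dnmt3b (ENSMUSG00000027478, chromosome 2, 153649450 to 153687730) was low: 75, 38 and 18 counts (3.72, 2.25 and 1.45 CPM) in Nsd2 f/f and 50, 39 and 59 counts (2.44, 2.16 and 3.01 CPM) in Nsd2 Vil-KO. The genotypes overlapped. The log2 difference was 0.01 (SE 0.44, interval -1.03 to 1.06; edgeR, adjusted p = 0.999). Per kilobase of merged exons, the level of Dnmt3a was 1.95 to 4.50 times that of Dnmt3b, with the lowest ratio in Nsd2 f/f replicate 1 and the highest in Nsd2 f/f replicate 3.

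The TET enzymes were unequal in level. Tet1 (ENSMUSG00000047146, chromosome 10, 62804570 to 62908996) had 1, 0 and 3 counts in Nsd2 f/f and 3, 0 and 1 in Nsd2 Vil-KO, at or under 3 counts in each library, and was not tested. Tet2 (ENSMUSG00000040943, chromosome 3, 133463679 to 133545139) was at 28.8, 29.7 and 26.6 CPM in Nsd2 f/f and 32.9, 29.6 and 40.7 CPM in Nsd2 Vil-KO. Tet3 (ENSMUSG00000034832, chromosome 6, 83362373 to 83459084) was at 73.3, 81.1 and 72.5 CPM in Nsd2 f/f and 97.6, 70.6 and 98.6 CPM in Nsd2 Vil-KO. For both genes the knockout replicate 2 lay within or below the control range, while the other knockout libraries were above every control library. The log2 difference was 0.28 for Tet2 (SE 0.19, interval -0.17 to 0.72; edgeR, adjusted p = 0.992). For Tet3 it was 0.23 (SE 0.19, interval -0.21 to 0.68; edgeR, adjusted p = 0.992). Without the 2 libraries that stood apart, Tet2 differed by 0.34 (unadjusted p = 0.0492, edgeR adjusted p = 0.448) and Tet3 by 0.36 (unadjusted p = 0.0141, edgeR adjusted p = 0.375). In that 4-library comparison 3 of the 9 genes, Dnmt3a, Tet2 and Tet3, passed the screening criterion, as did 11.0% of all tested genes, and 0 passed the adjusted criterion.

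The catalytic and structural subunits of PRC2 overlapped between genotypes. Ezh2, which carries the methyltransferase domain (ENSMUSG00000029687, chromosome 6, 47530139 to 47595341), was at 30.4, 41.5 and 21.7 CPM in Nsd2 f/f and 33.5, 22.9 and 29.5 CPM in Nsd2 Vil-KO. Eed, which binds trimethylated H3K27 (ENSMUSG00000030619, chromosome 7, 89954654 to 89980983), was at 41.2, 44.7 and 37.0 CPM in Nsd2 f/f and 36.4, 33.7 and 39.5 CPM in Nsd2 Vil-KO. Suz12, the scaffold of the complex (ENSMUSG00000017548, chromosome 11, 79993106 to 80034123), was at 57.0, 53.9 and 39.7 CPM in Nsd2 f/f and 58.4, 49.2 and 62.2 CPM in Nsd2 Vil-KO. Ezh2 and Suz12 were lowest in Nsd2 f/f replicate 3, and Eed varied least, 1.33 times between its highest and lowest library. The log2 difference was -0.12 for Ezh2 (SE 0.28, interval -0.79 to 0.54), -0.17 for Eed (SE 0.17, interval -0.56 to 0.23) and 0.17 for Suz12 (SE 0.20, interval -0.30 to 0.64), with edgeR adjusted p of 0.996, 0.992 and 0.992. Without both libraries that stood apart, the differences were -0.18, -0.17 and 0.13, and that of Dnmt3b was -0.14. Transcripts on the opposite strand share 174, 261 and 178 exon bases with Ezh2, Eed and Suz12, and 43 with Tet2, so the limit given for Dnmt3a applies to them too. It also applies to Nsd2, which shares 60 exon bases with the protein-coding gene Nelfa on the opposite strand.

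Values across libraries followed the replication genes for some of the 10 and not for others. The summed level of 24 S phase genes was 973.6, 1103 and 403.4 CPM in Nsd2 f/f and 927.9, 548.7 and 1008 CPM in Nsd2 Vil-KO, lowest in the 2 libraries that stood apart. The summed level of 14 mitosis genes was 1060, 1029 and 276.1 CPM in Nsd2 f/f and 1036, 581.9 and 1431 CPM in Nsd2 Vil-KO. In these 2 libraries, 21 of the 24 S phase genes, 13 of the 14 mitosis genes and 6 of the 9 genes of methylation and PRC2 were below each of the other 4 libraries, as were 20.9% of all tested genes. The 6 were Dnmt1, Uhrf1, Dnmt3b, Tet3, Ezh2 and Suz12. The mean of the 2 libraries relative to the other 4 was -1.99 in log2 for Uhrf1, -1.35 for Dnmt1, -0.66 for Dnmt3b and -0.60 for Ezh2, and it was -0.38 for Suz12, -0.29 for Tet3, -0.23 for Tet2, -0.20 for Eed and -0.02 for Dnmt3a. The median over all tested genes was 0.02. These values describe 2 libraries that were set aside on their overall profile and carry no test.

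Relative to the S phase sum, Dnmt1 was at 8.68, 8.61 and 8.35% in Nsd2 f/f and 10.4, 7.64 and 10.9% in Nsd2 Vil-KO, a narrower range than its CPM. Uhrf1 was at 7.41, 7.22 and 4.25% in Nsd2 f/f and 7.22, 3.65 and 7.61% in Nsd2 Vil-KO, so its share of the sum was lower in the 2 libraries. It was still within the range of single replication genes. In these 2 libraries relative to the others, those ran from -2.68 (Cdc6) to -0.48 (Tyms) in log2. Their median was -1.29, and Uhrf1 was at -1.99. Ezh2 lay between 2.93 and 5.39%, with its highest share in Nsd2 f/f replicate 3. These 2 libraries are also those with Xist reads, and 1 has the high mitochondrial share; the part of proliferation, of Xist-bearing samples or of RNA quality in these differences was not tested.

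**Figure D4:**
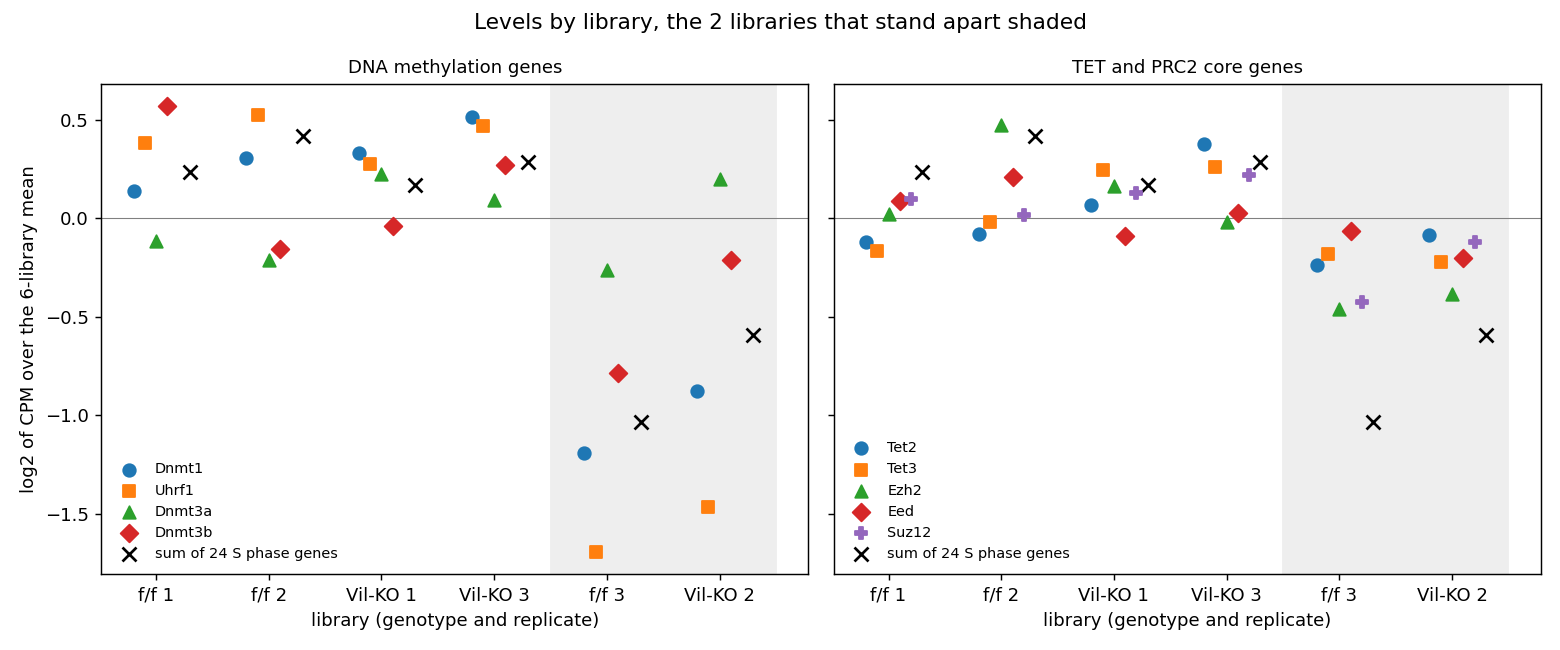
Log2 of CPM relative to the 6-library mean for the genes of DNA methylation (left) and for Tet2, Tet3, Ezh2, Eed and Suz12 (right) in each library, with the sum of the 24 S phase genes as crosses; the 2 libraries that stood apart are shaded. Uhrf1 and Dnmt1 are lowest in the shaded libraries, at 17.1 and 20.03 CPM and at 33.7 and 41.9 CPM, and Dnmt3a is not low in Nsd2 Vil-KO replicate 2, at 29.3 CPM.

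Levels were compared between genes per kilobase of merged exons, as means over the 6 libraries. Uhrf1 was at 13.02 ± 6.78 CPM per kilobase (SD, n = 6), Suz12 at 10.8 ± 1.62, Dnmt1 at 10.4 ± 4.27 and Eed at 10.1 ± 1.02, and the ranges of these 4 overlapped; the low libraries of Uhrf1 and Dnmt1 reached into the range of the next pair. Tet3 at 4.93 ± 0.765 and Ezh2 at 4.48 ± 1.09 overlapped with each other, as did Tet2 at 1.86 ± 0.296 and Dnmt3a at 1.54 ± 0.225. Dnmt3b followed at 0.491 ± 0.152, and Tet1 was at 0.00528. Counted per kilobase of the longest transcript, the order changed at the top: Eed was first at 18.7 and Ezh2 was at 10.7, while Dnmt3b and Tet1 stayed last. The level of Ezh2 was 0.448 to 1.15 times that of Ezh1, the other PRC2 methyltransferase, per kilobase of merged exons, with the lowest ratios in the 2 libraries that stood apart, and 0.607 to 1.56 times per kilobase of the longest transcript.

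**Figure D5:**
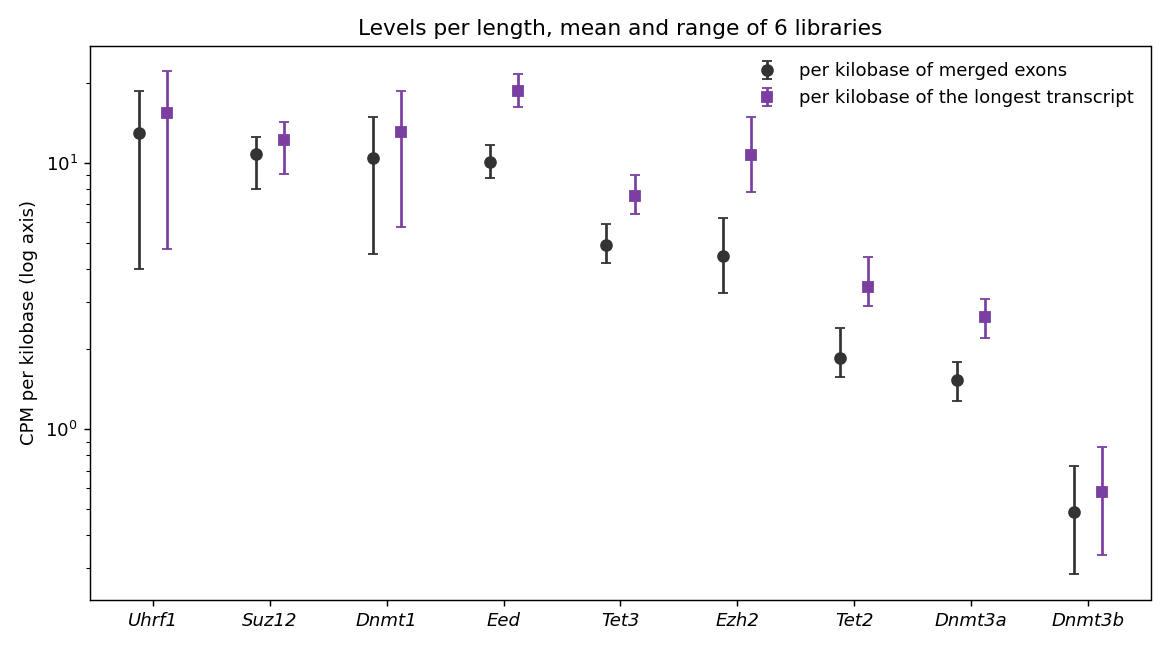
Mean level of 9 genes in CPM per kilobase (log axis), with bars from the lowest to the highest of the 6 libraries, per kilobase of merged exons and of the longest transcript; Tet1, at 0.00528 with libraries at 0, is left out. Uhrf1, Suz12, Dnmt1 and Eed overlap at the top, and Dnmt3b is lowest.

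The partners of these enzymes were described from fixed lists, each as its count beside 3.29% of all tested genes past the screening criterion. In no list did a gene pass the adjusted criterion. Of 9 partners of DNA methylation, 6 were tested, 4 on the higher and 2 on the lower side in Nsd2 Vil-KO, 0 past the screening criterion, with a median log2 difference of 0.02. The smallest p was that of Usp7, a deubiquitinase that stabilises UHRF1 and DNMT1, at 0.16 (SE 0.17, edgeR, unadjusted p = 0.388, adjusted p = 0.992). Hells, a chromatin remodeller needed for DNA methylation, was named after its values were seen, since it resembled Uhrf1: it had 28.2, 36.5 and 9.29 CPM in Nsd2 f/f and 28.5, 6.82 and 28.6 CPM in Nsd2 Vil-KO. In this list 5 genes were below the other 4 libraries in both libraries that stood apart.

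Of 11 genes of demethylation and base excision repair, all were tested, 4 higher and 7 lower, 0 past the criterion, with a median of -0.04. Tdg, the glycosylase that removes oxidised methylcytosine, had the smallest p, at 0.31 (SE 0.19, edgeR, unadjusted p = 0.138, adjusted p = 0.992). Of 6 readers of methylated CpG, 3 were higher and 3 lower, with 0 past the criterion and a median of -0.07. Zbtb38, a methyl-CpG binding zinc finger protein, had 26.3, 25.8 and 30.7 CPM in Nsd2 f/f and 22.9, 17.8 and 24.4 CPM in Nsd2 Vil-KO. Its genotypes did not overlap, as in 4.70% of genes with the knockout below, and its difference, -0.13 without both libraries that stood apart, was -0.35 (SE 0.20, edgeR, unadjusted p = 0.133, adjusted p = 0.992).

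Around PRC2, 9 of 11 partner genes were on the higher side in Nsd2 Vil-KO and 2 on the lower side, with a median of 0.10 (0.06 to 0.23 when single libraries were left out, lowest without Nsd2 Vil-KO replicate 2 and highest without Nsd2 f/f replicate 2), and 2 of the 11 passed the screening criterion as higher, a direction that 1.65% of all tested genes took. Epop, a partner found in PRC2 with PCL proteins, had 3.77, 2.54 and 1.94 CPM in Nsd2 f/f and 13.1, 10.1 and 3.68 CPM in Nsd2 Vil-KO. Nsd2 Vil-KO replicate 3 lay just below Nsd2 f/f replicate 1, and the log2 difference was 1.68 (SE 0.53, edgeR, unadjusted p = 0.0157, adjusted p = 0.992). Lcor, whose locus also encodes a PRC2 partner, had 8.03, 8.51 and 9.45 CPM in Nsd2 f/f and 10.4, 14.5 and 14.5 CPM in Nsd2 Vil-KO, with no overlap. Its difference was 0.60 (SE 0.25, edgeR, unadjusted p = 0.0495, adjusted p = 0.992). Without the 2 libraries that stood apart, Lcor kept its difference (0.60, edgeR, unadjusted p = 0.0316, adjusted p = 0.423) and Epop no longer passed the criterion (1.41, edgeR, unadjusted p = 0.121, adjusted p = 0.536). Leaving out single libraries took Lcor to 0.53 to 0.75 and Epop to 1.31 to 2.06. Lcor missed the criterion in all but 1 of these (the one without Nsd2 Vil-KO replicate 1), Epop without Nsd2 f/f replicate 2 or Nsd2 Vil-KO replicate 1. With all 6 libraries, Lcor also missed the criterion with RLE size factors, with no filter on low counts and with robust estimation off. The same held for Lcor with the replicate number as a block and with the older edgeR fit, and for Epop with limma-voom with quality weights. The H3K27 demethylases Kdm6a and Kdm6b were both on the higher side (1 of 2 without Nsd2 Vil-KO replicate 2) with 0 of 2 past the criterion, Kdm6b having the smaller p, at 0.26 (SE 0.22, edgeR, unadjusted p = 0.274, adjusted p = 0.992).

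PRC1, which reads the mark of PRC2 and ubiquitinates H2A, had 12 of 19 subunits on the higher and 7 on the lower side, with a median of 0.13 and 1 past the screening criterion. That median was -0.02 without Nsd2 Vil-KO replicate 3 (9 higher, 10 lower), 0.0086 without Nsd2 Vil-KO replicate 1 and 0.03 without Nsd2 f/f replicate 3. The gene past it, Cbx7, a chromodomain subunit that binds trimethylated H3K27, had 22.3, 18.4 and 15.6 CPM in Nsd2 f/f and 27.3, 43.3 and 22.0 CPM in Nsd2 Vil-KO. The genotypes overlapped by 1 library each, and the difference was 0.72 (SE 0.30, edgeR, unadjusted p = 0.0462, adjusted p = 0.992). It came to 0.39 without Nsd2 Vil-KO replicate 2 and to 0.29 without both libraries that stood apart (edgeR, unadjusted p = 0.151, adjusted p = 0.574), short of the criterion. Cbx7 also missed it without Nsd2 f/f replicate 2, without Nsd2 f/f replicate 3, without Nsd2 Vil-KO replicate 1, with limma-voom with quality weights, with scaling by library size only, with a term for the libraries that stood apart and with the replicate number as a block. The other H3K36 methyltransferases Nsd1, Nsd3, Setd2 and Ash1l were all on the higher side with a median of 0.07 and 0 of 4 past the criterion; without Nsd2 Vil-KO replicate 1 or replicate 3, 2 were higher and 2 lower, with medians of 0.0058 and 0.0020, and the median became 0.22 with Nsd2 Vil-KO replicate 2 left out. Nsd1, a close relative of Nsd2 and the gene with the smallest p, differed by 0.21 (SE 0.18, edgeR, unadjusted p = 0.294, adjusted p = 0.992).

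Genes listed as known targets of these systems were mostly near the limit of detection in both genotypes. Of 10 germline genes known to be silenced by DNA methylation, 3 had 0 counts in all 6 libraries, 1 passed the filter on low counts, and the summed level was 1.39 to 2.90 CPM in Nsd2 f/f and 0.388 to 2.71 CPM in Nsd2 Vil-KO. The one tested, Slc25a31, had a difference of -0.07 (SE 0.97; edgeR, adjusted p = 0.999). Of 17 developmental regulators known as PRC2 targets, 6 had 0 counts in all libraries and 1 was tested, with summed levels of 2.10 to 4.51 CPM in Nsd2 f/f and 0.888 to 3.17 CPM in Nsd2 Vil-KO. Nkx2-2, the gene tested, differed by -0.32 (SE 0.61; edgeR, adjusted p = 0.995). At this depth a gain of expression in the untested genes was not detectable beyond these sums. No DNA methylation or histone mark was measured in these libraries, so whether either system silenced these genes here was not tested.

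The cell cycle lists held 0 genes past the screening criterion. Of the 24 S phase genes, 11 were on the higher and 13 on the lower side with a median of -0.01, and Ccne2, a cyclin of S phase entry, had the smallest p, at -0.74 (SE 0.56, edgeR, unadjusted p = 0.223, adjusted p = 0.992). All 14 mitosis genes were on the higher side, with a median of 0.39, and Ccnb2, a mitotic cyclin, had the smallest p, at 0.51 (SE 0.39, edgeR, unadjusted p = 0.226, adjusted p = 0.992). These counts rested on single libraries: without Nsd2 f/f replicate 3, 1 of the 24 S phase and 5 of the 14 mitosis genes were on the higher side, and without Nsd2 Vil-KO replicate 2, 21 and 14 were. Without both libraries that stood apart, 7 of the 24 and 14 of the 14 were, with medians of -0.11 and 0.23. Nsd2 Vil-KO replicate 3 was the highest library for all 14 mitosis genes. Nsd2 Vil-KO replicate 1 was below controls 1 and 2 in some, such as Cdk1, at 42.3 against 50.7 and 44.3 CPM.

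Other cell types were present in small and unequal amounts. Summed epithelial markers were 11822, 13936 and 20282 CPM in Nsd2 f/f and 13998, 16127 and 15239 CPM in Nsd2 Vil-KO. This sum was highest in the 2 libraries that stood apart, with Krt8 and Krt19 as its largest parts in both. The median marker was 0.44 higher in log2 in these 2 than in the others, but the markers differed. Vil1 and Krt20 were lowest in Nsd2 Vil-KO replicate 2, at 549 and 640 CPM. Cdh1 was lower in both libraries than in every other, at 1246 CPM in Nsd2 f/f replicate 3 and 1180 CPM in Nsd2 Vil-KO replicate 2. Leukocyte markers summed to 115.9, 60.7 and 21.3 CPM in Nsd2 f/f and 52.7, 21.2 and 27.8 CPM in Nsd2 Vil-KO, with 4 of 4 genes on the lower side in the knockout and Ptprc at 5.71 to 30.7 CPM. Fibroblast and muscle markers summed to 265.6, 70.0 and 6.62 CPM in Nsd2 f/f and 76.9, 7.99 and 19.97 CPM in Nsd2 Vil-KO, with 8 of 8 lower, and Col1a1 was at 0.44 CPM in Nsd2 Vil-KO replicate 2. Both sums were lowest in the 2 libraries that stood apart, as Dnmt1 and Uhrf1 were. The myeloid sum did not follow them, at 725.2, 123.3 and 15.03 CPM in Nsd2 f/f and 145.0, 993.5 and 53.4 CPM in Nsd2 Vil-KO, so that of the 2 libraries one was lowest and the other highest. The high sum in Nsd2 Vil-KO replicate 2 came mostly from S100a8 and S100a9, at 573.9 and 404.9 CPM. Of the 7 myeloid markers, 3 (Lyz2, Csf1r and Adgre1) were lower in both libraries that stood apart than in every other library. The median of the 7 in these 2 libraries, relative to the others, was -1.82 in log2. Without Nsd2 f/f replicate 1, the median log2 difference went from -1.28 to -0.09 for fibroblast and muscle markers (2 higher, 6 lower), from -0.99 to -0.30 for leukocyte markers and from -1.01 to 0.54 for myeloid markers. B and plasma cell markers summed to 9.29 to 45.5 and 6.05 to 49.0 CPM, T cell markers to 6.79 to 9.28 and 4.99 to 11.6 CPM, and endothelial markers to 4.93 to 5.85 and 5.33 to 7.15 CPM. Of the marker genes named, Pecam1 passed the screening criterion, with 2.24 ± 0.59 CPM in Nsd2 f/f and 0.87 ± 0.60 CPM in Nsd2 Vil-KO (SD, n = 3; edgeR, adjusted p = 0.992), but not without both libraries that stood apart (log2 difference -0.90, against -1.33). Vwf, the other endothelial marker tested and named after its values were seen, passed in the opposite direction, with 2.58, 2.90 and 1.86 CPM in Nsd2 f/f and 3.61, 4.72 and 6.44 CPM in Nsd2 Vil-KO (log2 difference 1.00, edgeR, unadjusted p = 0.0351, adjusted p = 0.992), so the endothelial markers did not move one way. The part of these cells in the levels of the 10 genes was not tested.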

How the data were processed

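PolyA RNA of colonic IECs from 6 libraries was sequenced in paired ends. Reads were trimmed with Cutadapt and Trimmomatic and aligned to GRCm38 (mm10) with HISAT2, according to the study's methods and the submitters' processing notes. The methods name a directional kit, which keeps strand, and the labels another kit; the program behind the deposited table and whether it used strand are not given in the sources used here. The authors deposited raw counts per gene, not normalized and not filtered; all columns were used. The study's own test used FPKM from StringTie, not used here.

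Counts were tested in R 4.3.3 with edgeR 4.0.16 (TMM, filterByExpr, robust quasi-likelihood test, no covariates, Benjamini-Hochberg adjustment over 14650 genes); the depth of 15439123 to 20350539 reads per library sets the precision. Groups were taken from the labels, which call the controls WT and the knockouts NSD2-FF-VILCRE. The name Nsd2 f/f for the controls comes from the study's text. DESeq2 1.42.0, limma 3.58.1 (voom with quality weights) and other settings were alternatives, 17 planned and 1 added after the data were seen (an older form of the edgeR fit). The 10 genes and the lists were chosen with earlier results of these data known. Text names each of the 10, Nsd2, and of each list the genes past the screening criterion (at most 4) or, with none, that with the smallest p; of markers, sums and Epcam, Vil1, Ptprc, Col1a1 and Pecam1. Gene positions came from GENCODE vM21 and promoters from RefSeq; protein sequences were not used here. Intervals are at 95%, and those of the exact tests cover 10 splits. The test was tried on simulated data. Figures were drawn with matplotlib 3.10.9.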

Additional observations from a re-analysis of the deposited data

How the results depend on the processing

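Dnmt3a, Tet2, Tet3, Eed and Suz12 kept their direction in all 18 alternatives, with ranges of 0.33 to 0.41, 0.14 to 0.38, 0.15 to 0.38, -0.23 to -0.09 and 0.03 to 0.27 on the log2 scale, and none of the 9 tested genes passed an adjusted p below 0.05 in any. Dnmt3a passed the screening criterion in 4 alternatives (unadjusted p between 0.0224 and 0.17 over all), Tet2 in 2 and Tet3 in 3. Genes of the 9 past this criterion numbered 1 with DESeq2 (Dnmt3a; 4.32% of all genes), 3 with limma-voom with quality weights, which changes both the test and the weight of each library (Dnmt3a, Tet2 and Tet3; 9.83%), 3 without both libraries that stood apart (11.0%), 1 with a term for these (Dnmt3a; 7.82%), and 0 to 1 when single libraries were left out, the 1 being Tet3 without Nsd2 Vil-KO replicate 2 (5.08%). The same criterion gave 482 genes in all, 633 with DESeq2, 861 with no filter on low counts, 1440 with limma-voom with quality weights, 1646 without both libraries, 1145 with a term for them, and 323 to 769 with each library left out, the highest without Nsd2 Vil-KO replicate 2. Genes past an adjusted p below 0.05 numbered 4 with DESeq2 and 0 in each other alternative.

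The direction turned for Dnmt3b with limma-voom with quality weights (-0.016) and without both libraries (-0.14), and for Uhrf1 with a term for them (0.020). With each library left out, Dnmt1 ranged from -0.11 to 0.54, Uhrf1 from -0.47 to 0.35, Dnmt3b from -0.24 to 0.44 and Ezh2 from -0.32 to 0.14; the sign turned for Dnmt1 without f/f 3 or Vil-KO 3, for Uhrf1 without f/f 1, f/f 2 or Vil-KO 2, for Dnmt3b without f/f 2, f/f 3 or Vil-KO 3, and for Ezh2 without f/f 2 or Vil-KO 2. Nsd2 stayed between -1.42 and -0.87, but missed the screening criterion without f/f 1 (edgeR, unadjusted p = 0.0617), without f/f 2 (0.0738) and with scaling by library size only (0.0617). The median of the 9 ranged from -0.11 to 0.35. Causes were not tested. With the replicate number as a block, 303 genes and 0 of the 9 passed the screening criterion. Same-numbered libraries correlated in their deviations from the genotype means at 0.32, -0.35 and -0.11. These values cannot decide whether the libraries were paired, since the 2 that stood apart bear different numbers and weigh on the deviations. The 3 libraries per genotype and a biological coefficient of variation of 41.2% limit what could be detected.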
